A study of Rattus norvegicus with 6 samples.

Results

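Complement is a system of plasma and tissue proteins that tags microbes, dying cells and debris for removal. Here 9 of its genes, complement components and receptors taken by symbol, were followed out of 21028 gene models: C1qa, C1qb, C1qc, C1s, C2, C3, Cfb, C3ar1 and C5ar1. Each symbol matched 1 model, and 8 of the 9 had a mean of at least 1 FPKM over the libraries and entered the test. Cfb was the exception, listed at or next to 0. The values came from RNA sequencing of sciatic nerve from 6 female rats labelled WT, in which a nerve defect was bridged with a conduit. The PLLARS_US group (3 rats) had a PLLARS conduit and received ultrasound. The PCL group (3 rats) had a PCL conduit and no ultrasound, so that conduit material and ultrasound differ together and their effects cannot be told apart. Strain, age and time after surgery are not given in the sources used here, and the libraries were taken as 1 per rat.

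Complement is switched on by several routes that meet at C3. In the classical route C1q binds antibody, debris or certain cell surfaces. Of its partner proteases C1r and C1s, C1s then cuts C4 and C2. In the alternative route factor B and factor D build a C3-cutting enzyme on C3 already deposited. The fragments C3a and C5a call in leukocytes through the receptors C3AR1 and C5AR1, and C3 fragments on a target are read by the integrins CR3 and CR4. In injured peripheral nerve complement is known for marking degenerating myelin for uptake by macrophages, which are also a main source of C1q.

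Schwann cell markers were present in the libraries, which does not show that these held nerve alone. Of these markers, 10 of 10 had a mean above 1 FPKM. Their sum was 3554, 1908 and 5072 FPKM in PLLARS_US replicates 1 to 3, against 1269, 4319 and 4974 in PCL replicates 1 to 3. FPKM are fragments scaled to gene length and library depth. Steps between low values placed the depth at 15640000 to 16360000 fragments in the PLLARS_US libraries and at 15320000 to 16690000 in the PCL libraries. Libraries differed in tissue content across the groups. Skeletal muscle markers (7 of 10 found) had a mean log2(FPKM + 1) of 10.4 in PLLARS_US replicate 1 and 9.99 in PCL replicate 3, against 1.38 to 8.18 in the others, and fibroblast markers (8 of 9 found) had 7.65 and 7.58 in those libraries, against 8.48 to 8.63. These 2 are called the muscle-rich libraries below. Muscle markers summed to 13812.5 FPKM in PLLARS_US replicate 1 and 8871 in PCL replicate 3, more than the Schwann cell markers did there. Red blood cell markers (7 of 9 found) summed to 16090 FPKM in PLLARS_US replicate 1 and 20998 in PCL replicate 1, against 115 to 2586 in the others. In bulk tissue, fewer cells of a type and less RNA per cell cannot be told apart.

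The question put to the complement genes was whether the nerve of the PLLARS_US rats held more or less of their mRNA than that of the PCL rats. No complement gene passed the test. With limma on log2(FPKM + 1) and Benjamini-Hochberg adjustment over 13720 genes, 0 of 8 members had an adjusted p under 0.05 (range 0.650 to 0.977), where the share over all genes was 0.00%. The count at an unadjusted p under 0.05 was 1 member, C2, against 7.00% of all genes. The log2 difference was above 0 in 7 of 8 members, against 43.0% of all genes, with a median of 0.29 over the members and -0.042 over all genes tested. This count is a description only, as the members were chosen with earlier results of these data known. It counts C1qa, C1qb and C1qc separately, although they are chains of the same molecule. With 1 library left out, C1s and C3ar1 could fall below 0 and C5ar1 could rise above it. C2 was also the 1 member whose groups did not overlap, against 14.4% of all genes in either direction and 4.33% in the higher direction.

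**Figure D1:**
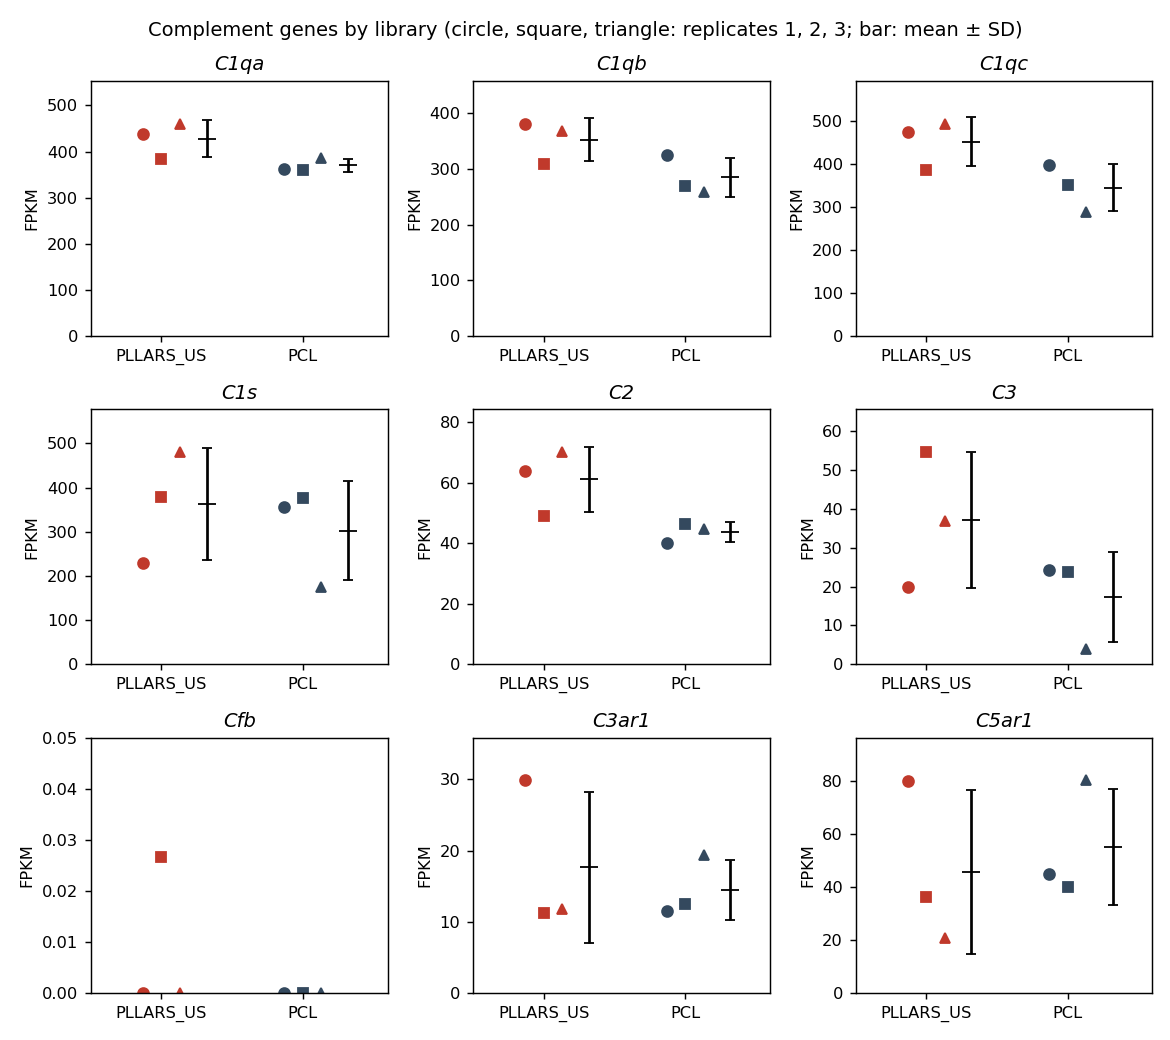
FPKM of the 9 complement genes in each library, with PLLARS_US rats on the left of each panel and PCL rats on the right; circles, squares and triangles are replicates 1, 2 and 3, and bars are the mean ± SD of 3 rats (none for Cfb, which was not tested). All PLLARS_US values lie above all PCL values in C2 only, and PLLARS_US replicate 1 and PCL replicate 3 stand out in C1s, C3ar1 and C5ar1.

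The C1q chains C1qa, C1qb and C1qc, which together form the recognition molecule of the classical route, were among the most abundant mRNAs in the tissue. Their mean FPKM lay above that of 98.5% to 98.8% of tested genes. In the deposited table they are minus-strand neighbours on chromosome 5, C1qa (ENSRNOG00000012807) from 155261250 to 155264143, C1qc (ENSRNOG00000012804) from 155255005 to 155258392 and C1qb (ENSRNOG00000012749) from 155246447 to 155252003. The submitters' notes name a human build for these rat models, so the build of these positions is not settled.

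C1qa had 439, 384 and 461 FPKM in PLLARS_US replicates 1 to 3, against 363, 361 and 387 in PCL replicates 1 to 3. The groups met at their edges, since PLLARS_US replicate 2 lay just under PCL replicate 3. The means were 428 ± 39.8 against 370.0 ± 14.6 FPKM (SD, n = 3 each). The log2 difference was 0.21, with an SE of 0.14 and a limma adjusted p of 0.854. C1qb had 382, 309 and 368 FPKM in the PLLARS_US libraries, against 326, 269 and 259 in the PCL libraries. Only PCL replicate 1 reached above the lowest PLLARS_US value. Its log2 difference was 0.31 (SE 0.16, limma adjusted p 0.813). C1qc had 475, 388 and 495 FPKM in the PLLARS_US libraries, against 397, 352 and 289 in the PCL libraries, again with PCL replicate 1 above PLLARS_US replicate 2. Its log2 difference was 0.39 (SE 0.19, limma adjusted p 0.788).

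The ratios between the C1q chains varied by 1.34-fold for C1qb to C1qa and by 1.47-fold for C1qc to C1qa over the libraries. C1qb ran at 0.870, 0.805 and 0.798 times C1qa in the PLLARS_US libraries, against 0.898, 0.747 and 0.671 times in the PCL libraries, so that C1qa exceeded C1qb in all 6 libraries. C1qc ran at 1.08, 1.01 and 1.07 times C1qa in the PLLARS_US libraries, against 1.10, 0.975 and 0.747 times in the PCL libraries. PCL replicate 3, a muscle-rich library, had the lowest ratio in both. As profiles over the 6 libraries, each centred on its own mean, C1qb and C1qc lay 0.086 apart (root mean square of log2 values), the closest of all pairs of members. C1qa lay 0.14 from C1qb and 0.19 from C1qc, no closer than its 0.13 from a flat profile.

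The starts of C1qa and C1qb are shown as those of the abundant C1q chains for which a window was found. RefSeq promoter windows of 300 bases around the gene start, in the rat build GRCr8, were matched for 4 of the 9 members (C1qa, C1qb, C3 and C3ar1). Capitals mark the matches of 5 motifs searched on both strands; C3 is added as the most variable member.
C1qa, minus strand, chr5:154419884-154420183: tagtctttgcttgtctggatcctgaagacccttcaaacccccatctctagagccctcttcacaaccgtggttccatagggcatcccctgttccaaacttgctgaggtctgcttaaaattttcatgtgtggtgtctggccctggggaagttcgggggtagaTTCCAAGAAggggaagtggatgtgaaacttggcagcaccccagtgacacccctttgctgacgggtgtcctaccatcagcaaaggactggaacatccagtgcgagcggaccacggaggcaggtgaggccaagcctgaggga
C1qb, minus strand, chr5:154407778-154408077: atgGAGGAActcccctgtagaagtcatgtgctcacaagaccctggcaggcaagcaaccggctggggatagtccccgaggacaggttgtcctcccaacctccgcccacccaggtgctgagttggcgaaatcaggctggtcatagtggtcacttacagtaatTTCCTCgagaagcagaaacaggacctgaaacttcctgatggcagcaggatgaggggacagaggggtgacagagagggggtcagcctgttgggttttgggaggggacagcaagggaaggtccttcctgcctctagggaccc
C3, minus strand, chr9:2201290-2201589: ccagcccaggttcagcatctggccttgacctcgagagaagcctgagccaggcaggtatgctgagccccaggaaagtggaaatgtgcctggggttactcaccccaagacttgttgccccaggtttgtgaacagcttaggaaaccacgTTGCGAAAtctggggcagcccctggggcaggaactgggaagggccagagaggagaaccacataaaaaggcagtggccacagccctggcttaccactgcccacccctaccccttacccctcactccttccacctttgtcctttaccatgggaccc

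In the C1qa window 1 match of the GAS core TTCNNNGAA, the letters bound by STAT factors, began 90 bases before the start; 8.87% of 33469 promoter windows held one. The C1qb window held 2 matches of GAGGAA, the core bound by the myeloid factor PU.1, 1 on each strand, as did 27.6% of windows with at least 1. The C3 window held 1 match of the C/EBP core TTGCNNAA, found in 10.6% of windows. The interferon response core, GAAA repeated after 2 bases of any kind (3.92% of windows), and the NF-kB core, GGGA, 2 bases of any kind, T, 1 base of any kind and CC (3.95%), had no match in these 4 windows, and C3ar1 held none of the 5. No matches overlapped each other. These matches describe letters in the windows and are neither tested sites nor causes.

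The C1q level did not follow the order of the macrophage markers over the libraries. The summed FPKM of the C1q chains was 1296, 1080 and 1324 in PLLARS_US replicates 1 to 3, against 1085, 982 and 935 in PCL replicates 1 to 3. The mean FPKM of 15 macrophage markers, all found and above the filter, was 203, 109 and 95.1 in the PLLARS_US libraries, against 110.4, 119 and 202 in the PCL libraries. The ratio of the C1q sum to that mean was therefore 6.38, 9.90 and 13.9 in the PLLARS_US libraries, against 9.83, 8.27 and 4.63 in the PCL libraries. It was lowest in the 2 muscle-rich libraries, which also had the highest macrophage marker level, and the groups overlapped. Against Cd68 alone, a lysosomal macrophage protein gene, C1qa ran at 0.945, 2.35 and 4.32 in the PLLARS_US libraries and at 2.02, 1.58 and 0.732 in the PCL libraries. The part of macrophages, and of the muscle content, in the C1q values was not tested.

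C1s, the protease of the C1 complex that cuts C4 and C2, had 229, 379 and 481 FPKM in PLLARS_US replicates 1 to 3, against 357, 377 and 175 in PCL replicates 1 to 3. The lowest value of each group was in its muscle-rich library, and the groups overlapped. The means were 363 ± 126 against 303 ± 111 FPKM (SD, n = 3 each). The log2 difference was 0.27, with an SE of 0.40 and a limma adjusted p of 0.953, and leaving out PCL replicate 3 turned it to -0.079. C1s (ENSRNOG00000011971, chromosome 4, minus strand, 157143592 to 157155609) lies beside its partner C1r (ENSRNOG00000011796, plus strand, 157125998 to 157136829). C1r had 209, 305 and 424 FPKM in the PLLARS_US libraries, against 253, 259 and 119 in the PCL libraries, with the same 2 libraries lowest. Fibroblast markers, whose sum was 4449, 6210 and 6784 FPKM in the PLLARS_US libraries and 7246, 7346 and 3692 in the PCL libraries, were lowest in those libraries too; their part in the result was not tested.

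C2, the serine protease cut by C1s to build the classical C3 convertase, gave the clearest separation of the members. C2 (ENSRNOG00000051235) had 63.9, 49.1 and 70.1 FPKM in PLLARS_US replicates 1 to 3, against 40.1, 46.5 and 44.8 in PCL replicates 1 to 3. All PLLARS_US libraries were above all PCL libraries, with PLLARS_US replicate 2 the nearest to them. The means were 61.0 ± 10.8 against 43.8 ± 3.30 FPKM (SD, n = 3 each), 1.39-fold higher in the PLLARS_US group, with a log2 difference of 0.46 (SE 0.17). The unadjusted limma p was 0.0317 and the adjusted p 0.650, and an exact two-sided permutation test gave p = 0.1, the smallest that 3 against 3 allows. Leaving out each library in turn gave log2 differences from 0.35 to 0.60, all in the same direction. No member had an unadjusted p under 0.05 in 5 of those 6 fits, nor with the replicate number as a block, so that C2 lost it there. Per mean macrophage marker, C2 ran at 0.314, 0.450 and 0.737 in the PLLARS_US libraries, against 0.363, 0.391 and 0.222 in the PCL libraries, and these ratios overlapped.

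The interferon-stimulated genes, 18 of 18 found, had a list mean log2(FPKM + 1) of 6.08, 5.37 and 6.14 in PLLARS_US replicates 1 to 3, against 3.86, 4.02 and 3.94 in PCL replicates 1 to 3. Within the PLLARS_US group C2, C1qa, C1qb, C1qc and that list were all lowest in replicate 2. In the PCL group C2 and the list shared an order, lowest in replicate 1 and highest in replicate 2, and they ranked all 6 libraries alike. The C1q chains did not share it there: C1qb and C1qc were highest in replicate 1, and C1qa was lowest in replicate 2. The part of this list in the C2 and C1q values was not tested. The list was chosen with earlier results of these data known.

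Cfb, the protease of the alternative C3 convertase, could not be measured in this table. Cfb (ENSRNOG00000000419) was listed at 0.0266 FPKM in PLLARS_US replicate 2 and at 0 in the other 5 libraries. Its model in the deposited table is placed on chromosome 20, minus strand, at 4536203 to 4561066, a span of 24864 bases that covers 99.5% of the C2 model (4542340 to 4561152, same strand). In the RefSeq annotation of GRCr8 the genes lie side by side, C2 with a span of 30285 bases and Cfb with 5868, 264 bases apart. All 10 protein identifiers that the table lists for C2 are also listed for Cfb. How fragments were divided between the overlapping models is not given in the sources used here, so the FPKM of C2 may hold fragments of Cfb, and the zeros do not show that Cfb mRNA was missing.

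C3, the component cut by all activation routes, had 19.8, 54.6 and 36.8 FPKM in PLLARS_US replicates 1 to 3, against 24.2, 23.8 and 4.08 in PCL replicates 1 to 3. C3 (ENSRNOG00000046834, chromosome 9, plus strand, 9721105 to 9747167) varied more than any other tested member, 13.4-fold between its lowest and highest library. That is its strand in the deposited table, whose build is not settled, whereas the GRCr8 window of C3 shown above is on the minus strand. The lowest value of each group again fell in its muscle-rich library, and PLLARS_US replicate 1 lay under PCL replicates 1 and 2. The means were 37.1 ± 17.4 against 17.4 ± 11.5 FPKM (SD, n = 3 each), with a log2 difference of 1.26 (SE 0.71, limma adjusted p 0.823). Leaving out PCL replicate 3 gave 0.49, the lowest of such values, and leaving out PCL replicate 1 gave 1.65, the highest. Without both muscle-rich libraries it was 0.87 (SE 0.20, adjusted p 0.273). Liver markers, in 6 of 7 models found, summed to 0.381 to 5.12 FPKM in the PLLARS_US libraries and 0.721 to 1.07 in the PCL libraries, with Alb, Ttr, Serpina1, Fgb and Tat each at 0 in at least 1 library.

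The anaphylatoxin receptors were highest in the 2 muscle-rich libraries, which were also highest in macrophage markers. C3ar1, the receptor for C3a (ENSRNOG00000009211, chromosome 4, minus strand, 155684029 to 155690869), had 29.8, 11.2 and 11.8 FPKM in PLLARS_US replicates 1 to 3, against 11.5, 12.4 and 19.3 in PCL replicates 1 to 3. Outside the 2 muscle-rich libraries it stayed between 11.2 and 12.4 FPKM. Its log2 difference was 0.17 (SE 0.41, limma adjusted p 0.977), and it was -0.27 without PLLARS_US replicate 1. C5ar1, the receptor for C5a (ENSRNOG00000047800, chromosome 1, minus strand, 78186776 to 78195328), had 80.1, 36.3 and 20.6 FPKM in the PLLARS_US libraries, against 44.95, 39.9 and 80.2 in the PCL libraries. The top libraries of both groups, which are the muscle-rich ones, were level, and PLLARS_US replicate 3 was lowest. Its log2 difference was -0.41 (SE 0.52, limma adjusted p 0.944), and its direction hung on PLLARS_US replicate 3, since 0.041 remained when that library was left out. Leaving out PLLARS_US replicate 1 gave -0.91, and leaving out PCL replicate 3 gave -0.11.

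Macrophage markers summed to 3047, 1637 and 1427 FPKM in PLLARS_US replicates 1 to 3, against 1656, 1780.4 and 3026 in PCL replicates 1 to 3, with none at 0. Divided by the mean of these markers, C5ar1 ran at 0.394, 0.332 and 0.216 in the PLLARS_US libraries, against 0.407, 0.336 and 0.397 in the PCL libraries, a narrower range than its FPKM. C3ar1 ran at 0.147, 0.103 and 0.124 in the PLLARS_US libraries, against 0.105, 0.105 and 0.0957 in the PCL libraries. C5ar1 exceeded C3ar1 in all libraries, by 2.68, 3.23 and 1.74 times in the PLLARS_US libraries and by 3.89, 3.21 and 4.15 times in the PCL libraries. Neutrophil markers, 11 of 11 found and 7 above the filter, summed to 425, 38.1 and 44.3 FPKM in the PLLARS_US libraries, against 70.1, 107 and 46.8 in the PCL libraries, with Camp and Elane each at 0 in 1 library. PLLARS_US replicate 1 was thus high in macrophage and neutrophil markers and in both receptors, and PCL replicate 3 in macrophage markers and both receptors; the part of these cells in the receptor values was not tested.

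**Figure D2:**
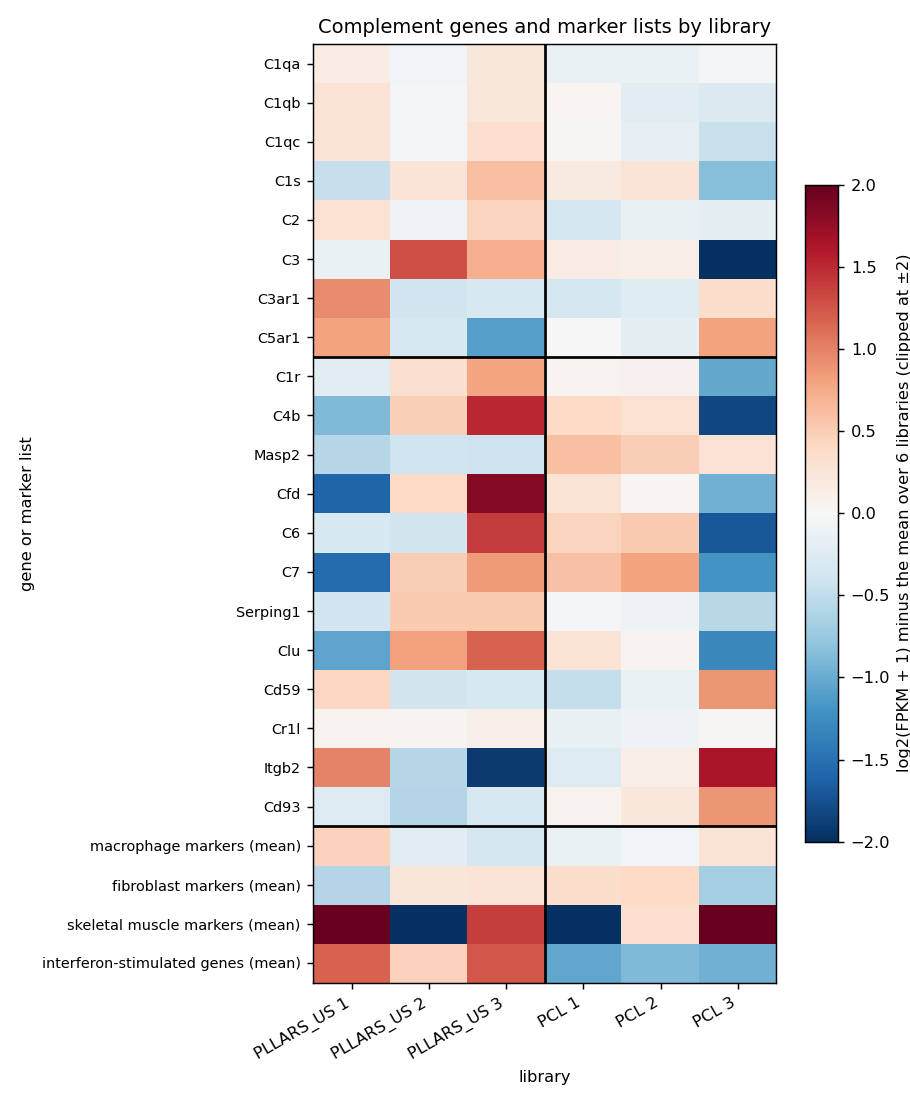
Log2(FPKM + 1) minus the gene's mean over 6 libraries, for the 8 tested complement genes (top), 12 other complement genes (middle) and 4 list means (bottom); columns are PLLARS_US replicates 1 to 3, then PCL replicates 1 to 3, red is above and blue below the mean, clipped at ±2. C3ar1 and C5ar1 are red in PLLARS_US replicate 1 and PCL replicate 3, where C1s, C1r, C4b, C7 and Clu are blue.

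Ordered by mean FPKM over all 6 libraries, the tested members were C1qc (399), C1qa (399), C1s (333), C1qb (319), C2 (52.4), C5ar1 (50.3), C3 (27.2) and C3ar1 (16.0). Cfb has no place in this order, as it could not be measured, and the value of C2 may hold fragments of Cfb. The ranges over libraries of neighbours in this order overlapped, except between C1qb and C2. C1qa was the steadiest from its lowest to its highest library, C1qb followed at 1.47-fold, C1qc at 1.71-fold and C2 at 1.75-fold, and C3ar1, C1s, C5ar1 and C3 ran from 2.65-fold to 13.4-fold.

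**Figure D3:**
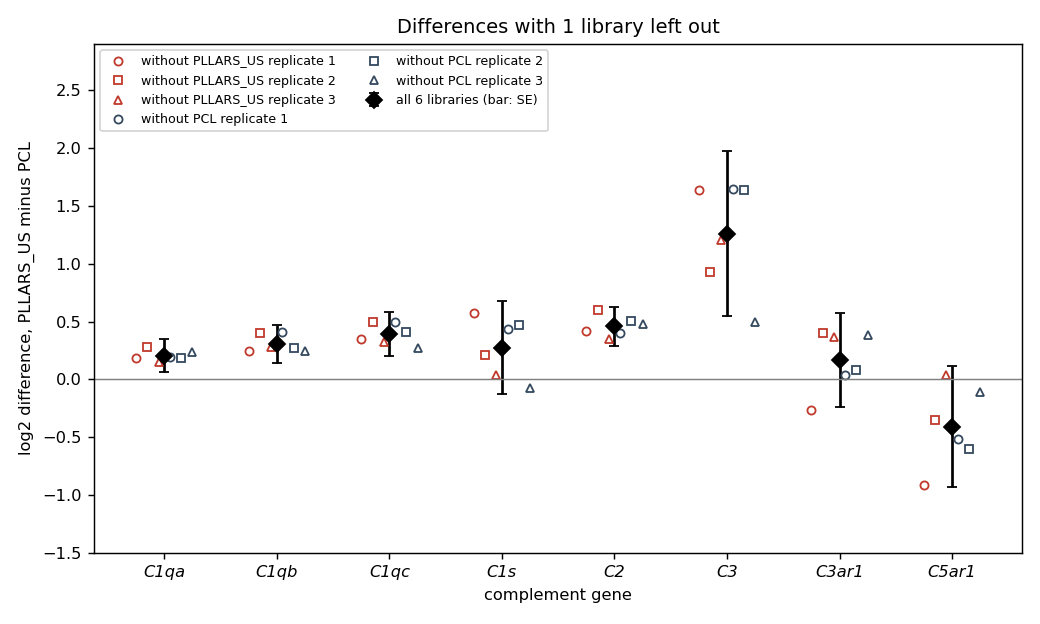
Log2 difference of log2(FPKM + 1), PLLARS_US minus PCL, for the 8 tested complement genes, with all 6 libraries (diamonds, bar SE) and with each library left out (red for a PLLARS_US library, dark blue for a PCL library; circle, square and triangle for replicates 1, 2 and 3). C1qa, C1qb, C1qc, C2 and C3 stay above 0 in every case, while C1s, C3ar1 and C5ar1 cross it.

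Without the muscle-rich libraries, 2 rats remained in each group, and 5 of 8 members did not overlap, against 49.3% of all genes. C1qa, C1s, C2 and C3 were higher in the PLLARS_US rats (19.9% of all genes) and C5ar1 was lower (29.4% of all genes). None passed, with limma adjusted p from 0.273 to 0.842 over the members and 0 of 13706 genes called.

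Beyond the members, a list of 54 further symbols of the pathway was read, of which 42 had a model and 34 were tested. With limma 0 of 34 had an adjusted p under 0.05. At an unadjusted p under 0.05, 2 were lower (5.01% of all genes) and 0 higher (1.99%). The log2 difference was above 0 in 22 and below it in 12, where 43.0% of all genes were above 0. The median was 0.098, against -0.042 over all genes tested. The 2 were Masp2 and Cd93. Groups did not overlap in 3 of 34, against 14.4% of all genes: these 2, which were lower, and Cr1l, which was higher.

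Masp2, the lectin route protease that cuts C4 and C2, had 1.81, 2.18 and 2.15 FPKM in PLLARS_US replicates 1 to 3, against 5.31, 4.86 and 4.12 in PCL replicates 1 to 3. The groups stood well apart, at less than 6 FPKM in all libraries. The means were 2.04 ± 0.207 against 4.77 ± 0.600 FPKM (SD, n = 3 each). The log2 difference was -0.92, with an SE of 0.17 and a limma adjusted p of 0.268. It passed only under limma array weights, which give variable libraries less weight, with a log2 difference of -0.91 and an adjusted p of 0.0330. In 16 of its 17 alternatives it was not called. Array weights called 118 of 13720 genes, against 0 in the main fit. They put 2827 genes at an unadjusted limma p under 0.05, against 960 in the main fit. Its partner Masp1 had 11.0, 4.69 and 7.93 FPKM in the PLLARS_US libraries, against 7.89, 6.15 and 7.24 in the PCL libraries, and the groups overlapped. Masp1 was named after its values were seen.

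Of the classical and lectin list, 9 of 15 were tested, 7 above and 2 below 0, where 43.0% of all genes were above 0. The median log2 difference was 0.45, against -0.042 over all genes tested. Among the 3 most abundant, C1r had a log2 difference of 0.59 (SE 0.40), which was 0.23 without PCL replicate 3 and 0.86 without PLLARS_US replicate 1. C4b, cut by C1s and the lectin proteases, had 82.6, 213 and 435 FPKM in the PLLARS_US libraries, against 200.1, 189 and 42.6 in the PCL libraries. Both muscle-rich libraries were lowest in C4b, and its log2 difference of 0.74 (SE 0.81) was 0.022 without PCL replicate 3 and 1.37 without PLLARS_US replicate 1. C4b lies inside a C4-like model in the table and has the paralog C4a, so its reads may be split among them. Colec12, a scavenger receptor with collectin structure, differed by 0.047 (SE 0.38) and was lowest in the muscle-rich libraries.

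Both alternative route genes were above 0. Cfd, factor D or adipsin, which is also an adipocyte product, had 154, 622 and 1679 FPKM in the PLLARS_US libraries, against 570.1, 482 and 242 in the PCL libraries. PLLARS_US replicate 3 was highest and PLLARS_US replicate 1 lowest of all 6. The Cfd model lies wholly inside that of Arhgap45 on the same strand (16.1 to 33.0 FPKM), so fragments may be divided between them. The log2 difference of Cfd, 0.43 (SE 0.87), was -0.39 without PLLARS_US replicate 3 and 1.33 without PLLARS_US replicate 1. Adipocyte markers, 5 of 5 found with none at 0, summed to 36.8, 155 and 364 FPKM in the PLLARS_US libraries, against 122, 56.2 and 56.9 in the PCL libraries, with the same highest and lowest library; their part in the Cfd value was not tested. Cfp, properdin, which steadies the alternative convertase, differed by 0.073 (SE 0.32) and was lowest in the muscle-rich libraries.

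The terminal components form the membrane pore. Of 8 listed, 5 had a model and 3 were tested. C7 was the most abundant, with 63.1, 262 and 338 FPKM in the PLLARS_US libraries, against 279, 325 and 80.3 in the PCL libraries, lowest in the muscle-rich libraries. C6 had 25.2, 24.0 and 83.6 FPKM in the PLLARS_US libraries, against 43.1, 45.5 and 8.94 in the PCL libraries. C8g differed by -0.16 (SE 0.16), and its model overlaps Fbxw5 on the other strand. C5 stayed at or under 0.124 FPKM and C9 at or under 0.0524 FPKM in every library, so that the pore genes with a model were very unevenly represented. Nothing can be said of the listed genes without a model.

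Of 9 soluble regulators listed, 7 had a model and 5 were tested. All 5 were above 0, against 43.0% of all genes, with a median log2 difference of 0.39 against -0.042 over all genes tested. Serping1, the C1 inhibitor that shuts off C1r and C1s, had 511, 951 and 955 FPKM in the PLLARS_US libraries, against 651, 619.9 and 453 in the PCL libraries. PLLARS_US replicates 2 and 3 exceeded all PCL libraries, while the lowest value of each group was in its muscle-rich library. Its log2 difference was 0.45 (SE 0.31, limma adjusted p 0.849), and it was 0.75 without PLLARS_US replicate 1 and 0.28 without PCL replicate 3. Clu, clusterin, which blocks the pore, had 121, 449 and 576 FPKM in the PLLARS_US libraries, against 307, 263 and 103 in the PCL libraries, lowest in the muscle-rich libraries. Its log2 difference of 0.63 (SE 0.70) was 0.15 without PCL replicate 3 and 1.32 without PLLARS_US replicate 1. Vtn, vitronectin, which binds the forming pore, averaged 10.2 ± 2.88 FPKM in the PLLARS_US libraries and 9.59 ± 2.25 in the PCL libraries (SD, n = 3 each), and its log2 difference of 0.066 (SE 0.25) was -0.13 without PLLARS_US replicate 3 and -0.11 without PCL replicate 3.

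**Figure D4:**
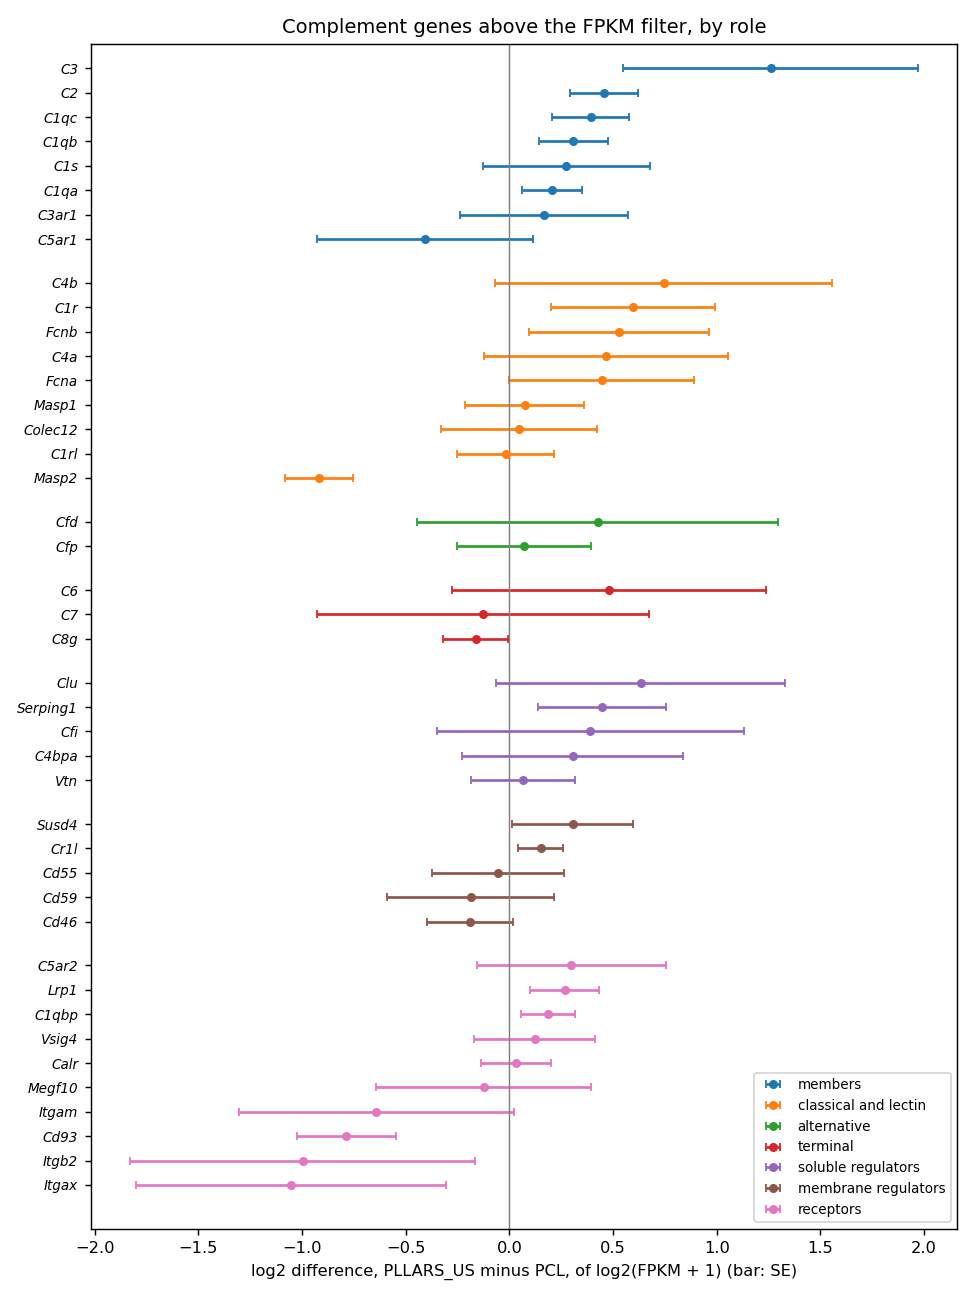
Log2 difference of log2(FPKM + 1), PLLARS_US minus PCL (points, bar SE), for the 8 tested members and 34 other complement genes, grouped by role. No gene passed the adjusted threshold; Masp2, Cd93 and C2 are the genes with an unadjusted limma p under 0.05.

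Membrane regulators, which protect host cells, were tested for 5 of 9, with 2 above and 3 below 0. Cr1l, the rodent regulator Crry, had 43.4, 42.7 and 44.5 FPKM in the PLLARS_US libraries, against 37.2, 38.3 and 42.0 in the PCL libraries. The groups did not overlap, but the log2 difference was 0.15 (SE 0.11, limma adjusted p 0.864). Cd59, which blocks the pore at the cell surface, had 225, 131 and 135 FPKM in the PLLARS_US libraries, against 121, 154 and 314 in the PCL libraries, highest in the muscle-rich libraries. Cd55 differed by -0.055 (SE 0.32).

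Receptors other than the members were split, 5 above and 5 below 0 of 10 tested, with a median of -0.046. Cd93, a surface protein of endothelial and myeloid cells once proposed as a C1q receptor, had 27.1, 21.7 and 26.2 FPKM in the PLLARS_US libraries, against 34.6, 38.8 and 61.7 in the PCL libraries. All PLLARS_US libraries were lower, and the log2 difference was -0.79 (SE 0.24, unadjusted limma p 0.0157, adjusted p 0.565). Endothelial markers (5 of 7 found, none at 0) summed to 94.9, 142 and 140.2 FPKM in the PLLARS_US libraries, against 138, 118 and 73.7 in the PCL libraries. The part of endothelial cells, and of the macrophages whose marker sums are given above, in the Cd93 value was not tested. Itgb2, the beta chain shared by CR3 and CR4, had 249, 84.0 and 32.3 FPKM in the PLLARS_US libraries, against 103, 137 and 389 in the PCL libraries, highest in the muscle-rich libraries and in the library order of C5ar1 except that PCL replicates 1 and 2 change places. Calr, a C1q-binding chaperone, differed by 0.032 (SE 0.17), and Lrp1, an uptake receptor, by 0.27 (SE 0.17).

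For each tested member the 3 most similar profiles were sought among 9993 other named genes with a mean of at least 5 FPKM, by root mean square distance of centred log2(FPKM + 1) over the 6 libraries. Near matches are bound to exist among so many genes with 6 points, so the names are a description only. Nearest to C1qa were Ehd1 (0.025), Pebp1 (0.042) and Rpia (0.043), and nearest to C2 were Xdh (0.080), Enpp4 (0.081) and Usp53 (0.091). C1s was nearest to Lims2 (0.059), Fcgrt (0.061) and Lvrn (0.071). C3 had no close match, with Nudt4 (0.32), Cryba4 (0.34) and Map1b (0.35) first. C5ar1 was nearest to Lcp1 (0.058), a leukocyte actin-bundling protein gene, which had 228, 109 and 63.9 FPKM in the PLLARS_US libraries, against 124, 121 and 247 in the PCL libraries. C3ar1 was nearest to Oser1 (0.043), C1qb to Xpa (0.044) and C1qc to Snrnp35 (0.049).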

How the data were processed

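Poly(A) RNA from sciatic nerve of 6 rats was sequenced as paired-end reads, per the labels' protocols. The deposited values are FPKM per gene model, 1 column per library, as the deposited workbook's name states. HISAT2 (2.1.0), DESeq (1.28.0), StringTie (1.3.3b) and FastQC (0.11.5) are named without roles, per the submitters' processing notes. Sheet 2 of the workbook repeated the values in 21028 of 21028 rows. Strand use in counting is not given in the sources used here. No counts were analysed, so no count model was fitted. Genes with a mean of at least 1 FPKM (13720) entered limma (version 3.58.1, R 4.3.3) as log2(FPKM + 1), group as the only term, mean-variance trend, two-sided, with Benjamini-Hochberg adjustment at 0.05. Differences on this scale understate the change of low genes. Libraries were built independently per the labels, and p-values measure the spread between these rats. The fit was tested on simulated data.

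Members and lists were chosen with earlier results of these data known, and 1 gene was left out of the lists and is not reported here. Named genes were the 9 members, the 3 of highest level in each pathway list, and every pathway gene at an unadjusted p under 0.05. Alternatives covered pseudocount, filter, scaling, moderation, weights, a replicate block and left-out libraries. Depth came from FPKM times length of small single-exon models, where all values under 50 fragments lay within 0.03 of a whole number.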

Additional observations from a re-analysis of the deposited data

How the results depend on the processing

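In 18 alternatives no complement member was called, and the median log2 difference of the members stayed above 0, from 0.22 to 0.40 (0.26 to 0.40 with 1 library left out). C1qa, C1qb, C1qc, C2 and C3 kept their direction in all 18. With array weights 118 genes were called over all genes tested and 1 of the other complement genes, Masp2 (log2 difference -0.91); the cause was not tested. Leaving out single libraries called 0 to 3 genes in all, and 3 without PLLARS_US replicate 2. Whether the replicate numbers pair the rats is not given in the sources used here. Deviations of same-numbered libraries correlated at -0.50, 0.15 and -0.32. These values cannot settle it, since the libraries also differ in tissue content. With the replicate as a block 0 genes were called, 543 at an unadjusted limma p under 0.05 against 960 without it. The member median was then 0.29.

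Other directions turned too, and the cause was not tested. C3ar1 was -0.030 with array weights and -0.053 without both muscle-rich libraries, where Vtn was -0.078; Cd55 was 0.0026 under median-ratio scaling and Calr -0.033 under quantile normalization. With 1 library or both muscle-rich libraries left out, the log2 differences ran from -0.079 to 0.57 for C1s, -0.27 to 0.40 for C3ar1, -0.91 to 0.041 for C5ar1, -0.20 to 0.45 for Colec12, -0.39 to 1.33 for Cfd, -0.16 to 0.37 for Cfp, -0.25 to 0.86 for C6, -0.76 to 0.61 for C7, -0.13 to 0.23 for Vtn, -0.29 to 0.20 for Cd55, -0.47 to 0.21 for Cd59 and -0.071 to 0.17 for Calr.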

Other observations

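Of 10 ratios between complement genes or to macrophage markers, 2 had no overlap between the groups. For the FPKM of single genes that share was 14.4% over all genes tested. Both were chosen after the values were seen, so they are given as a description with no test. C1s ran at 1.10, 1.24 and 1.13 times C1r in PLLARS_US replicates 1 to 3, against 1.41, 1.46 and 1.47 times in PCL replicates 1 to 3, although the 2 genes vary by 2.74-fold and 3.56-fold over the libraries. The ratio averaged 1.16 ± 0.0755 against 1.44 ± 0.0307 (SD, n = 3 each). C3 ran at 0.0863, 0.144 and 0.0766 times C1s in the PLLARS_US libraries, against 0.0679, 0.0632 and 0.0233 times in the PCL libraries.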
